A study of Rattus norvegicus with 6 samples.

Results

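The 252 circular RNAs described here are the probes that the scanner software marked as well above background on all 3 arrays of saline-treated rat lungs and on none of the 3 arrays of monocrotaline-treated lungs. They were chosen by this measured mark, out of 14145 circular RNA probes on the array. Of the probes that met the rule, 257 in all, 5 were left out by name. Lung tissue came from male rats, labelled as 6 weeks old, after perfusion with PBS. The rats had received monocrotaline (MCT) intraperitoneally, 60 mg per kg given once, or, as controls, the same volume of saline, and the lungs were taken 28 days later. There were 3 samples per group, named saline 1 to 3 and MCT 1 to 3, with 1 array each. The labels number the replicates without saying that each was a separate animal, so any spread between them may be technical, and they name no strain and no measure of pulmonary pressure.

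A circular RNA forms when the splicing machinery joins the end of an exon to the start of the same or an earlier exon, which closes the RNA into a ring without free ends. RNase R, an exonuclease that digests linear RNA, was applied before labelling to enrich the rings. Circular RNAs are often produced at low levels and turn over slowly, and some bind microRNAs or proteins. Monocrotaline is a plant alkaloid that the liver converts to a reactive pyrrole. The pyrrole injures the endothelium of the lung vessels, and the rat then develops thickened pulmonary arteries and strain of the right heart. The comparison of the groups asks which rings differ in the lung at that stage. None of the 252 probes is paired with a gene or a sequence in the sources used here, so they are given by array ID, and whether markers of lung cell types lie among them could not be checked.

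The 6 arrays differed in brightness. The 75th percentile of the processed signal, in fluorescence units, lay between 75.6 and 94.5 on the saline arrays. It was 95.2 on MCT 2, while the dimmer MCT 1 and MCT 3 had 41.4 and 32.3. The saline arrays and MCT 1 shared 1 scan time, and MCT 2 and MCT 3 another. Arrays of 1 scan time were taken as 1 slide, so the slides named here were inferred from scan times alone. Only MCT 2 therefore matched the saline arrays in brightness, and it lay on a slide without a saline array. Each circular RNA had 1 spot per array, and no spot of the 252 was marked as uneven or as an outlier. The number of arrays limits the precision of every value below.

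The members were among the dimmest circular RNAs seen in the saline lungs. On saline 1 their processed signal ran from 7.66 to 53.4 units with a median of 11.3. On saline 2 it ran from 5.81 to 50.5 units with a median of 9.54, and on saline 3 from 5.69 to 35.7 units with a median of 9.84. Of the 10834 circular RNAs marked on all saline arrays, the dimmest 10% by mean saline signal (1084 probes) held 210 of the 252 members, or 83.3%. A mean saline signal of at most 20 units was found for 239 members (94.8%) but for 19.7% of the 10834. Where the mean saline signal was at most 10 units, 98 of 271 circular RNAs (36.2%) were members. Between 15 and 20 units 24 of 910 were, and above 50 units none of 5425 was.

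**Figure D1:**
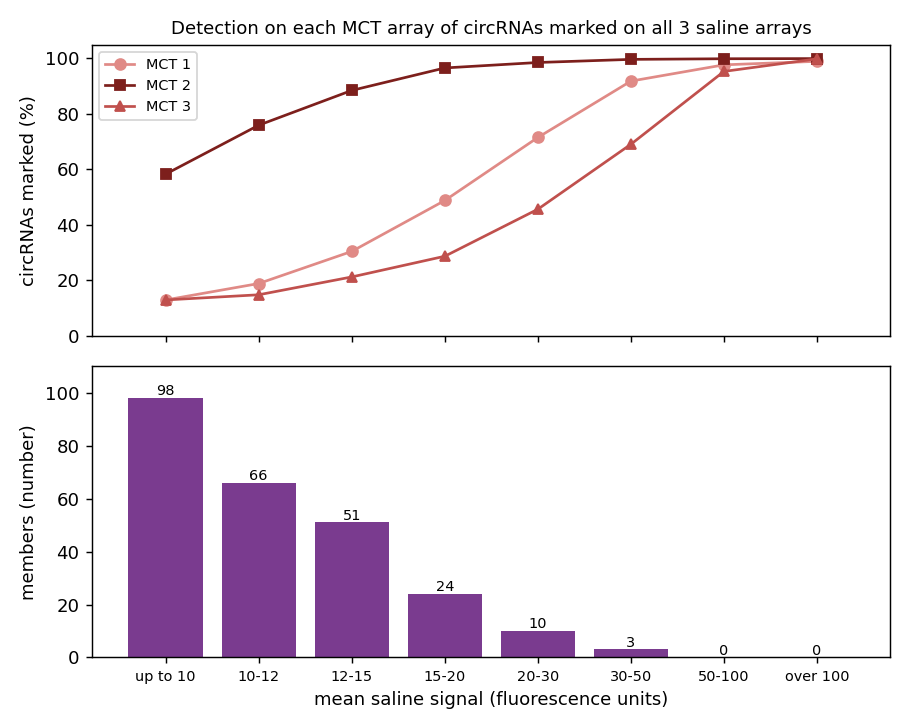
The upper panel plots the percentage of circular RNAs marked on all saline arrays that were also marked on MCT 1, MCT 2 and MCT 3, by mean saline signal in fluorescence units. The lower panel counts the members in the same classes. MCT 2 marked 58.3% in the dimmest class and 96.6% between 15 and 20 units, where MCT 1 marked 48.8% and MCT 3 marked 28.7%.

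Membership turned mainly on MCT 2. Of the 10834, 2037 (18.8%) were not marked on MCT 1, 3102 (28.6%) not on MCT 3, and 326 (3.01%) not on MCT 2. Both dim arrays lacked the mark for 1648, of which MCT 2 carried it for 1391. Without MCT 2, the rule would have taken 1643 circular RNAs instead of 252, and without saline 1 it would have taken 389. A further 317 were marked on exactly 2 saline arrays and no MCT array, and 3 were marked on all MCT arrays and no saline array.

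The mark stood for a different brightness on each array. On every array all marked circular RNAs had a higher background-subtracted signal than all unmarked ones, so that each array had its own cutoff. It was 7.66 units on saline 1, 6.15 on saline 2 and 6.04 on saline 3, but 8.18 on MCT 1, 9.40 on MCT 2 and 8.90 on MCT 3. All 3 MCT cutoffs were thus higher than all 3 saline cutoffs. On MCT 2, 102 of the 252 members (40.5%) reached the highest saline cutoff and 175 (69.4%) reached the lowest. On MCT 1 and on MCT 3, 11 members each reached the highest saline cutoff. In the other direction, 71 members (28.2%) reached the MCT 2 cutoff on all saline arrays, and 30 reached it on no saline array.

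**Figure D2:**
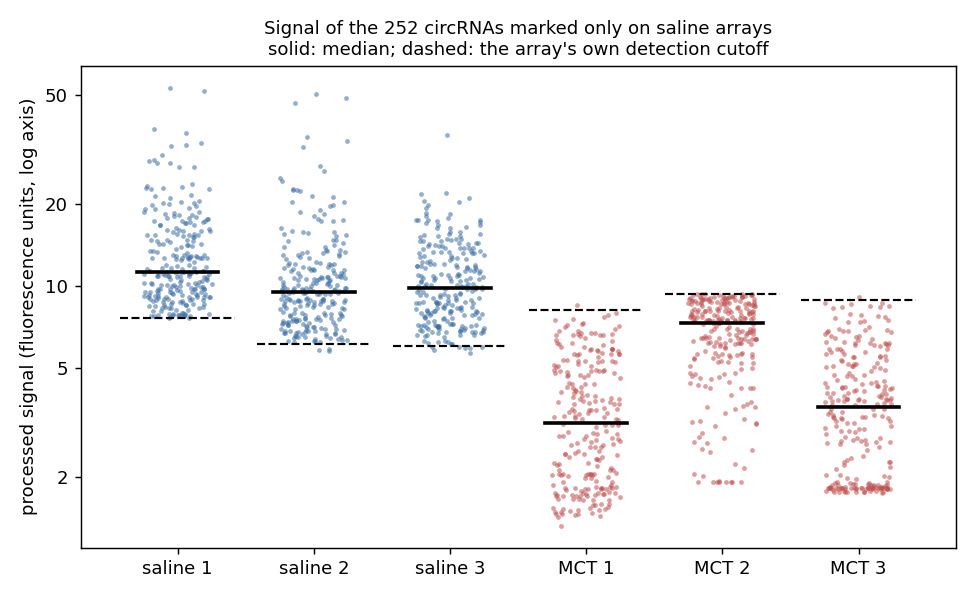
Each point is the processed signal of 1 of the 252 members on 1 array, in fluorescence units on a log axis, with the median as a solid line and the array's detection cutoff as a dashed line. Medians were 11.3, 9.54 and 9.84 units on the saline arrays and 3.14, 7.34 and 3.61 units on MCT 1 to 3. The cutoff applies to the background-subtracted signal. On saline 2, saline 3, MCT 1 and MCT 3 the plotted signal differs from it by a correction for brightness trends across the array. A few points therefore lie past the cutoff. On MCT 2 the 2 signals were equal for marked spots, but points at its lowest value, 1.91 units, stand for signals not significantly above background.

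A single cutoff for all 6 arrays was applied as a comparison chosen after seeing the data. At the highest cutoff, 9.40 units, 80 circular RNAs apart from the 5 left out were saline-only, and 71 of them were members. At 7.66 units 69 were saline-only. All of them were members, which is fixed in advance, since 7.66 units is the highest saline cutoff and below every MCT cutoff. At 6.04 units 85 were saline-only, of which 59 were members. MCT-only circular RNAs at the same 3 cutoffs numbered 3, 8 and 5. The dim arrays MCT 1 and MCT 3 enter these counts as they are. Among the 4 bright arrays alone, 9869 circular RNAs reached 9.40 units on each. The number that fell short on a single one of them was 123 for saline 1, 454 for saline 2, 93 for saline 3 and 118 for MCT 2.

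Most members still gave a signal on MCT 2. The software has a laxer mark, a positive signal significantly above the local background, and 244 of the 252 carried it on MCT 2 (96.8%), against 92.3% of all 14145. On MCT 1 194 members carried it (77.0%, against 85.2% of all), and on MCT 3 190 did (75.4%, against 82.0%). By the rule the members were detected in saline lungs, and all 252 carried the laxer mark on every saline array. Of all 14145, 92.3% to 95.1% did so on each saline array, so the 14145 are not a like set. All 3 MCT arrays gave the laxer mark for 151 members, 2 arrays for 75, 1 array for 25 and none for 1. With that mark in place of the stricter one, 99 circular RNAs were saline-only.

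On MCT 2 itself, before any scaling, the members ran from 1.91 to 9.38 units with a median of 7.34. For 178 of the 252 (70.6%) MCT 2 lay below all 3 saline values, where 16.4% of the circular RNAs marked on all saline arrays did so. After scaling, 211 members lay below all 3 saline values on MCT 2, against 22% of those circular RNAs. Before scaling, MCT 2 lay for 72 members within the saline range and for 2 above it. The rule holds MCT 2 below its cutoff and the saline arrays above theirs, which in part sets the direction of these counts. The shortfall exceeded the software's error estimates of both spots for 68 members (27.0%), against 6.19% of the circular RNAs marked on all saline arrays. The median error estimate of a member's spot was 2.02 units on MCT 2 and between 1.56 and 1.90 units on the saline arrays. The median log2 difference of MCT 2 from the saline mean was -0.60 over the members and 0.18 over all circular RNAs marked on all saline arrays. As measured, 80 members were at least 2-fold and 14 at least 4-fold below the saline geometric mean, although a value below the cutoff has no reliable size. Against the cutoff itself, the geometric mean of the saline signals was at least 2-fold higher for 13 members.

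**Figure D3:**
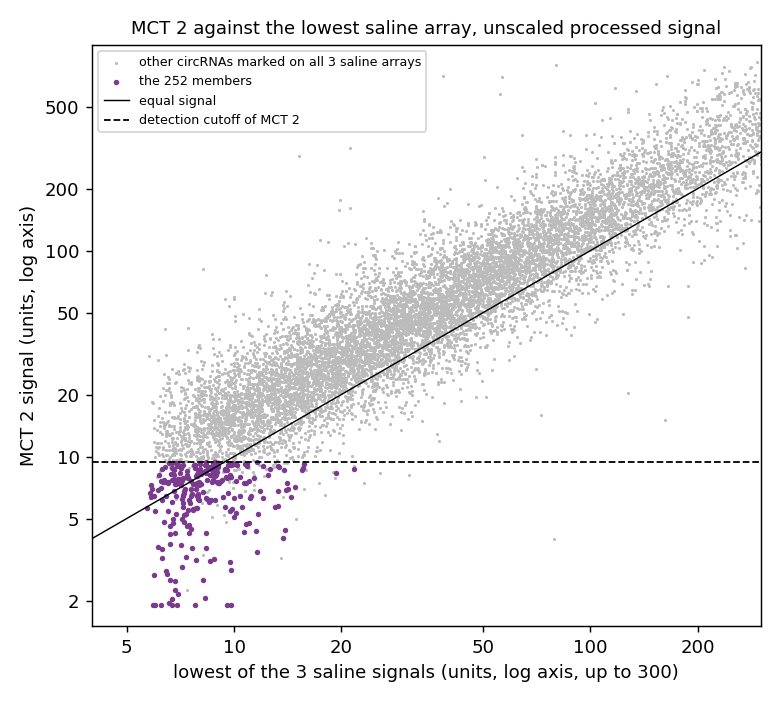
Processed signal on MCT 2 against the lowest of the 3 saline signals, both in fluorescence units on log axes, for circular RNAs marked on all saline arrays, with the 252 members in purple. Brighter circular RNAs lie outside the axes. The members form the dim lower left end of the cloud under the dashed cutoff of MCT 2 (9.40 units), 178 of them below the line of equal signal.

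At the threshold, members and non-members had nearly the same MCT 2 signal. The 3 members closest to the cutoff had 9.38, 9.37 and 9.36 units on MCT 2. The 3 circular RNAs just outside, unmarked on MCT 1 and MCT 3 but marked on MCT 2, had 9.40, 9.40 and 9.41 units. The first of these had saline signals of 12.8, 10.2 and 9.99 units, and the first of the members 15.5, 11.6 and 12.9 units.

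The 71 members that reached the MCT 2 cutoff on every saline array are those that one shared cutoff at the level of MCT 2 leaves as saline-only. They were picked after their values were seen, and their lower signal on MCT 2 follows from the choice. Their median processed signals were 15.6, 12.6 and 13.3 units on saline 1 to 3, and 2.74, 7.58 and 3.83 units on MCT 1 to 3. The laxer mark was given to 69 of them on MCT 2. All 71 were below all saline values on all 3 MCT arrays before scaling, and 37 were after each array had been set to its own 75th percentile. The median of their scaled log2 differences was -1.19 on MCT 2 and -0.93 over the 3 MCT arrays. Among the other 181 members the medians were 10.1, 8.59 and 8.51 units on the saline arrays and 7.26 units on MCT 2. Only 2 members reached 2 times the MCT 2 cutoff on every saline array.

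The largest bounds on the difference were those of ASCRPR013602, ASCRPR013466, ASCRPR002821 and ASCRPR003325. ASCRPR013602 had 36.5, 50.5 and 21.7 units on saline 1 to 3 and 1.83, 8.70 and 3.87 units on MCT 1 to 3. All 3 saline signals were more than 2 times that of MCT 2, the highest MCT signal. On the scale where 0 is each array's 75th percentile, its mean log2 level in saline lungs was -1.36 ± 0.77 (SD, n = 3). In MCT lungs the mean was -3.67 ± 0.74 (SD, n = 3), all of it below reliable detection. A lower bound on the difference takes for each MCT array the array's cutoff, or the probe's own signal where that is higher, and compares their mean with the saline mean. By this bound, chosen after seeing the data, the mean saline signal was at least 2.23-fold higher. This bound and those of the members below make no allowance for the spread between the saline arrays. With each array's lowest marked processed signal in place of the cutoff, a lower floor on MCT 1 and MCT 3, the ratio was 2.48. Of the 252 members 3 had a bound of at least 2-fold under either floor, and 28 had one above 1 with the cutoffs, or 42 with the lowest marked signals.

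ASCRPR013466 had 51.8, 49.1 and 14.0 units on the saline arrays and 3.35, 6.85 and 6.84 units on the MCT arrays. It was the member with the highest mean saline signal, 38.3 ± 21.1 units (SD, n = 3), and saline 3 stood apart from the other two saline arrays. Its bound was at least 2.15-fold (2.39 with the lower floor), but after scaling MCT 3, at -2.24, lay above saline 3, at -2.76, so that the groups overlapped. ASCRPR002821 had a like profile, with 53.4, 47.0 and 13.8 units on the saline arrays and 2.04, 8.63 and 4.02 units on the MCT arrays, and at least 2.13-fold more in saline (2.37 with the lower floor). Saline 3 was again the lowest saline array, and the groups did not overlap with or without scaling. ASCRPR003325 had 32.5, 35.1 and 13.7 units in saline and 1.94, 4.00 and 3.66 units in MCT lungs, and at least 1.63-fold more in saline (1.82 with the lower floor). Its MCT 2 signal was the lowest among these 4. Against the MCT 2 cutoff alone, without scaling, the saline geometric means of these 4 were at least 3.64-fold, 3.50-fold, 3.47-fold and 2.66-fold higher, in the order in which they were named. In the authors' values their log2 differences of MCT from saline were -0.80, -0.81, -0.98 and -0.46, in the same order. The laxer mark was given on all 3 MCT arrays to these 4 except ASCRPR002821, which had it on 2.

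**Figure D4:**
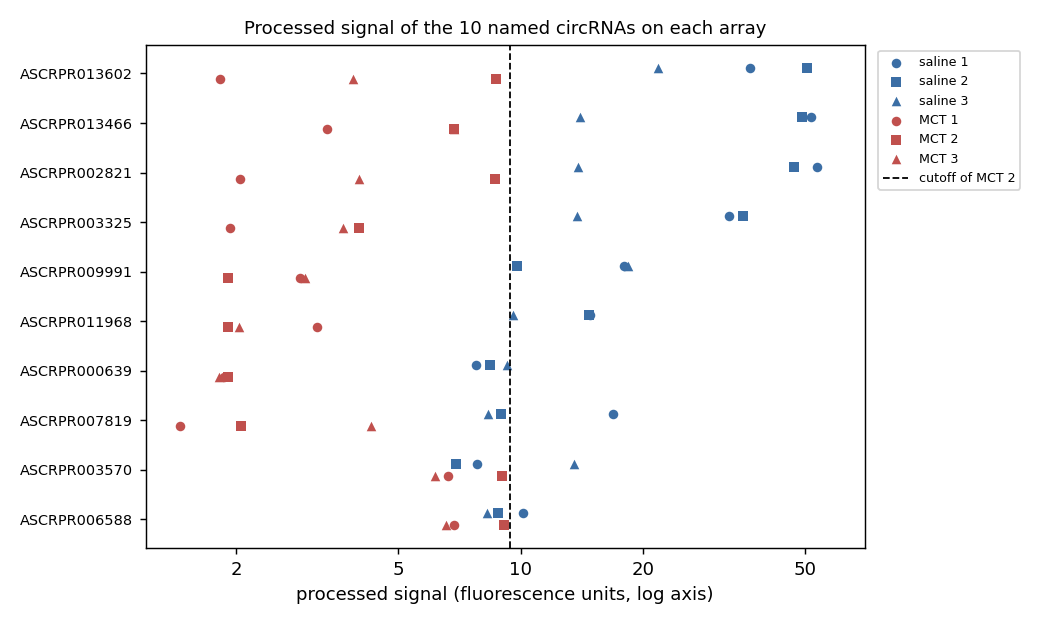
Processed signal of 10 members on each array, in fluorescence units on a log axis, with the detection cutoff of MCT 2 dashed. ASCRPR013602 at the top had 21.7 to 50.5 units on the saline arrays and at most 8.70 units on the MCT arrays. For ASCRPR003570 and ASCRPR006588 at the bottom MCT 2 lay within the saline range.

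On the log scale, the members with the largest gap between the lowest saline array and MCT 2 were dimmer than these 4, and the size of the gap rests on MCT 2 values at or near that array's lowest. ASCRPR009991 had 17.9, 9.80 and 18.4 units in saline lungs and 2.87, 1.91 and 2.96 units in MCT lungs. ASCRPR011968 had 14.8, 14.7 and 9.56 units in saline and 3.16, 1.91 and 2.03 units in MCT lungs. The value of 1.91 units is the lowest on MCT 2 and stands for a signal not significantly above background. These 2 probes reached the MCT 2 cutoff on all saline arrays, with saline geometric means, unscaled, at least 1.57-fold and 1.36-fold above it. On the scaled signal over the 3 MCT arrays, ASCRPR009991 had a bound of 1.07 with the lower floor and none above 1 with the cutoffs. ASCRPR011968 had none above 1 under either floor. ASCRPR000639 had 7.76, 8.39 and 9.25 units in saline, with the narrow spread of 8.47 ± 0.75 (SD, n = 3), and 1.86, 1.91 and 1.81 units in MCT lungs. Its saline signals were all below the MCT 2 cutoff, so no fold can be given. ASCRPR007819 had 16.8, 8.97 and 8.31 units in saline and 1.45, 2.05 and 4.29 units in MCT lungs, and only saline 1 was above the MCT 2 cutoff. The laxer mark was given on 2 MCT arrays to ASCRPR009991, ASCRPR011968 and ASCRPR007819, and on only 1 to ASCRPR000639.

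At the other end stood members whose signal on MCT 2 nearly equalled the geometric mean of the saline signals. ASCRPR003570 had 7.83, 6.92 and 13.5 units on the saline arrays and 6.61, 9.01 and 6.14 units on the MCT arrays. ASCRPR006588 had 10.1, 8.80 and 8.28 units in saline and 6.87, 9.08 and 6.55 units in MCT lungs. In both, MCT 2 was brighter than 2 of the 3 saline arrays and yet unmarked. On the scaled signal both had higher means in MCT than in saline lungs, by 0.47 ± 0.40 (SE) and 0.52 ± 0.39 (SE) on the log2 scale, at values below reliable detection on every MCT array.

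The size of the members' difference between the groups depended on the processing. Without scaling, the median log2 difference from saline was -1.80 on MCT 1, -0.60 on MCT 2 and -1.64 on MCT 3. After setting each array to its 75th percentile it was -0.72 on MCT 1, which shares the slide of the saline arrays, -0.72 on MCT 2 and -0.21 on MCT 3. Over the 3 MCT arrays the members' scaled median was -0.66, with single members from -2.32 to 0.76 and 199 of 252 below 0. Over all 11280 circular RNAs marked on at least 3 arrays the median was -0.04, and without scaling it was -0.84, a shift shared by the whole array. In the authors' processed values the members' median was -0.13 over the 3 MCT arrays and -0.23 on MCT 2. All their values there lay between 4.65 and 6.69. The 3 MCT values all lay below the 3 saline values for 82 members on the scaled signal (32.5%, against 7.08% of all circular RNAs marked on at least 3 arrays) and for 172 without scaling (68.3%, against 13.7%). The rule used these same marks in both groups, so the members' higher shares follow in part from it and nothing is read from them.

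**Figure D5:**
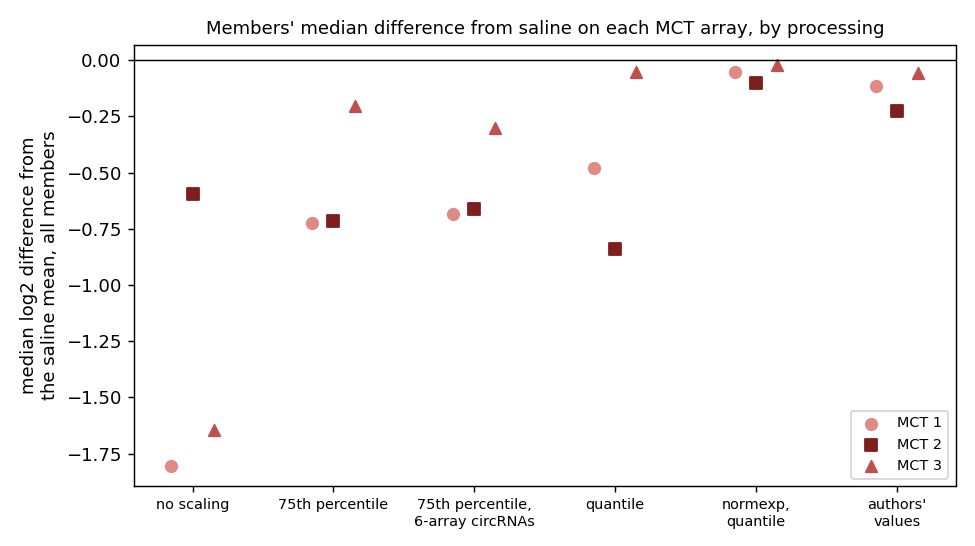
Median log2 difference of the 252 members from the mean of the 3 saline arrays, for each MCT array under 6 ways of processing. MCT 1 and MCT 3 were near -1.80 and -1.64 without scaling and at -0.12 and -0.06 in the authors' values, while MCT 2 ran from -0.84 after quantile normalization to -0.10 after normexp correction.

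In the fit across all circular RNAs none of the 252 passed an adjusted p of 0.05 (limma with Benjamini-Hochberg adjustment), where 0.0177% of the 11280 tested were called lower. By the looser criterion, an unadjusted p below 0.05 with at least a 1.5-fold difference, 79 members were lower and none higher, where 6.64% of all tested were called lower. The same 79 had an unadjusted p below 0.05 without the fold. The rule used this contrast, and each member entered the test through its 3 saline marks alone, so nothing is read from these counts. In the authors' values 7 members met the looser criterion.

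Within the saline group the members did not vary as 1 block. Across the 252, scaled signals correlated at r = 0.73 between saline 1 and saline 2, but at 0.16 between saline 1 and saline 3 and at 0.24 between saline 2 and saline 3. These values describe members of a narrow range of brightness on shared arrays. After scaling, saline 3 was the lowest saline array for 144 members (57.1%), against 36.0% of circular RNAs marked on all saline arrays. Before scaling it was lowest for 111 (44.0%, against 25.9%). The rule bears on these shares, since it admits lower signals on saline 3, whose cutoff of 6.04 units was the lowest. The 75th percentile of saline 3, 94.5 units, was also the highest of the saline arrays. The circular RNAs set beside the members were mostly brighter, and the part of the rule in these shares was not tested. Of the 13 members with a mean saline signal above 20 units, saline 3 was the lowest saline array in 12. Their median was 32.5 units on saline 1 and 27.4 on saline 2, but 13.8 on saline 3. On MCT 1 to 3 it was 2.04, 6.95 and 4.02 units. All 13 were lower on MCT 2 than on any saline array, which their choice by saline brightness and the cutoff of MCT 2 nearly fix. By these medians saline 3 lay between the other saline arrays and MCT 2. Over all members, the highest saline signal was at least 2 times the lowest for 59 of the 252.

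The position of the spots on the array played no part in the rule. Divided by columns into 4 equal strips from left to right, the array held 85, 60, 35 and 72 members, which is 3.04%, 2.25%, 1.33% and 2.63% of the circular RNAs marked there on all saline arrays. By rows from top to bottom the 4 strips held 76, 50, 57 and 69, or 2.83%, 1.84%, 2.11% and 2.54%. The members' median signal on MCT 2 was 6.45 units in the first strip of columns and 7.20, 7.54 and 7.55 units in the other three, while their median saline mean stayed between 10.5 and 11.1 units. The part of array position in the members' values was not tested.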

How the data were processed

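Circular RNA in 6 rat lung samples was measured on 1-colour Arraystar arrays with Cy3 label, after digestion with RNase R, per the labels' protocols. Per the file headers, the deposited spot intensities were extracted with Agilent Feature Extraction 11.0.1.1, with background subtraction per spot and no scaling between arrays. The files hold a processed signal, a background-subtracted signal, an error estimate and yes-or-no marks (column type other). The authors' deposited table holds log2 values with equal maxima of 17.6 and medians of 6.06 to 6.08. Set against each spot's median signal, not the processed signal used for the members, these values had slopes per doubling between 0.977 and 1.19. On saline 1, ASCRPR000639 had 7.76 processed units and an authors' value of 5.19, and ASCRPR002821 had 53.4 units and 6.54. Between these probes that slope did not hold in processed units. The background treatment is not given in the sources used here, and its part in the members' smaller differences in the authors' values was not tested. There were 0 columns per sample without a sample.

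Control spots and marked outlier spots were left out, and spots of a probe were averaged (14227 probes). Each array's 75th percentile was subtracted from log2 processed signals. MCT and saline were compared with limma 3.58.1 in R 4.3.3 over the 11280 circular RNAs well above background on at least 3 arrays and with at least 2 usable values per group. The script of this fit was also checked on simulated data with known changes, which enter no value given here. The members, the lists and the tests were chosen with earlier results of these data known. The circular RNAs named were the 4 with the largest bound (floor at each array's lowest marked signal), the 4 with the largest gap from the lowest saline array to MCT 2 on the log scale, the 2 with the highest saline mean and the 2 with the smallest log-scale gap to MCT 2, which gave 10. Alternatives were other scalings, normexp correction (offset 50), the authors' values, other filters, slide and replicate blocks, and leaving out each array. The lists of host genes and cell markers were not used here, since no probe has a gene name.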

Additional observations from a re-analysis of the deposited data

How the results depend on the processing

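Against 252 saline-only circular RNAs, the laxer mark gave 99, and 1 cutoff for all arrays, chosen after seeing the data, gave 80 at the highest cutoff, 69 at the highest saline cutoff and 85 at the lowest. With 1 array left out in turn the number ran from 273 to 1643. The members' median log2 difference between the groups, -0.66, became -1.46 without scaling, -0.052 with normexp and quantile normalization and -0.13 in the authors' values, and ran from -0.78 to -0.48 with 1 array left out. On MCT 2 the median of -0.72 became -0.60, -0.10 and -0.23 in the same settings and -0.84 after quantile normalization. MCT 2 was below all saline arrays for 211 members on the scaled signal, and for 178 to 238 in the other settings. By the looser criterion 79 members were lower. The number was 151 without scaling, 0 with normexp and quantile normalization, 7 in the authors' values, and 46 to 109 with 1 array left out. No member had a mean saline signal above 50 units, the size of the normexp offset, which by construction shrinks log2 differences of dim spots. The members' largest drop in that setting, -0.49, was short of 1.5-fold, so nothing is read from its count of 0.

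Over all circular RNAs 2 were lower at an adjusted p of 0.05 (limma) and 749 by the looser criterion. These counts became 1 and 1528 without scaling, 0 and 368 with normexp, 0 and 455 with only circular RNAs marked on all 6 arrays, 113 and 1361 on slide 1 alone, and 1 to 12 and 345 to 1268 with 1 array left out. The authors' values gave 0 at the adjusted threshold, and slide as a block gave 119. With slide as a block the difference is that of MCT 1 alone. The replicate number as a block gave 12 at the adjusted threshold, and 51 members by the looser criterion. Replicate numbers gave no pairing, as deviations of same-numbered arrays correlated at -0.23, -0.36 and -0.45. Signal over background limits all values of the members on the MCT arrays, none of which was well above it, and except where a setting's construction shows it, the cause was not tested.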
